A study of Homo sapiens with 16 samples.

Results

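The long arm of chromosome 19 carries several clusters of zinc finger genes, and the expression of these genes was followed here in myeloma cells treated with inhibitors of histone methylation. A gene was included when its symbol began with ZNF, ZFP, ZSCAN or ZKSCAN followed by a digit and its probe lay on chromosome 19 at or beyond position 26000000 of the GRCh37 (hg19) build. Of 32080 named genes on the array, 177 met the name and position rule, and they were represented by 267 probes. Where a gene had several probes, the brightest by its average over the 16 arrays stood for it, and 140 genes were kept because both arrays of 1 or more groups had the probe well above background. The set was therefore selected on measured signal as well as on name and position, and the counts and medians over it are descriptions.

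RPMI-8226 and MM.1S, both established human multiple myeloma cell lines, were cultured for 6 days with DMSO (vehicle), GSK126 (1 µM), UNC0638 (1 µM) or GSK126 + UNC0638 (1 µM of each), with 2 replicates per group and 1 single-colour array per replicate. GSK126 inhibits EZH2, the methyltransferase that places H3K27me3, and UNC0638 inhibits G9a and GLP (the products of EHMT2 and EHMT1), which place H3K9me2. The paper describes its array heat maps as means of 2 biological replications. Nothing in the labels says that the 2 replicates of a group were separate cultures. The p-values measure only the spread between these samples, part of which may be technical. All arrays of RPMI-8226 were on 1 slide and all arrays of MM.1S on another, so that slide and line cannot be told apart.

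Most zinc finger genes of 19q belong to the Krüppel-associated box (KRAB) family, whose proteins bind DNA through tandem C2H2 zinc fingers. The KRAB domain recruits TRIM28 (KAP1), which in turn brings the H3K9 methyltransferase SETDB1, heterochromatin protein 1 and histone deacetylases to the bound site. Many of these proteins bind and silence transposable elements. The gene clusters arose by tandem duplication, and the gene bodies of the clusters themselves are known to carry H3K9me3 in many cell types. A few genes caught by the naming rule are of another kind, among them ZFP36 (tristetraprolin), a CCCH zinc finger protein that promotes the decay of AU-rich mRNAs, and ZNF541, a germ cell gene needed for meiosis.

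A level is given below as log2 of the processed signal minus the array's own 75th percentile, so that 0 is the level of the 75th percentile spot, and a probe's level cannot be set against that of another probe. Replicate arrays correlated at r = 0.985 to 0.995 over the kept probes of each line, and the median absolute difference between replicates over the 140 genes ranged from 0.123 in MM.1S DMSO to 0.307 in RPMI-8226 GSK126. Between 46.5% and 49.7% of spots were above background in RPMI-8226 and between 49.9% and 52.8% in MM.1S, and no used spot was saturated. The 6 plasma cell marker genes on the array (SDC1, TNFRSF17, SLAMF7, XBP1, CD38 and IGJ) were above background on all 8 arrays of each line. Of the markers of other cell types, CD2, CD14 and KRT18 were also above background on all arrays, CSF1R was above background in RPMI-8226 only (8 of 8 arrays against 0 of 8), EPCAM on 8 RPMI-8226 and 4 MM.1S arrays, and CD3E on 4 and 5 arrays.

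Of the 140 genes, 100 were above background on all 16 arrays. In RPMI-8226, 126 were detected in at least 1 group and could be tested, and in MM.1S 127, with 113 in common. A further 13 genes were measured only in RPMI-8226 and 14 only in MM.1S. At the edge of the detection rule, ZNF566 and ZNF347 were kept through the RPMI-8226 DMSO arrays alone and ZNF541 through the RPMI-8226 GSK126 + UNC0638 arrays alone, whereas ZNF234, ZNF649, ZNF528, ZNF665 and ZNF470 were above background on only 2 or 3 arrays, never on both arrays of a group. The 37 genes that were not kept included ZNF382, a KRAB repressor, ZSCAN4, a gene of the early embryo, and ZNF536, a neuronal repressor. The number of the 140 genes above background on both arrays was 124 in RPMI-8226 DMSO, 119 with GSK126, 114 with UNC0638 and 111 with the combination. In MM.1S the corresponding numbers were 123, 126, 118 and 118. A gene kept only through the group in which it was high had to differ between groups, so counts are also given below for the genes above background on every array.

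The promoters of these genes had a higher median number of CpG dinucleotides than RefSeq promoters as a whole. Each of the 140 genes was matched to a RefSeq gene by accession or symbol, and 2 had been renamed since the array was designed (ZFP112 is now ZNF112 and ZNF542 is the pseudogene ZNF542P). A promoter sequence was at hand for 125 of them. The sequences come from RefSeq on GRCh38.p14, another build than that of the probe positions. The promoters of 3 genes that were lower with the combination in both lines and of ZNF541, the gene called higher in RPMI-8226, are shown as the 250 bases before the transcription start, 5′ to 3′ on the strand of the gene, with every CpG in capitals. They lie at chr19:58228664-58228913 on the plus strand (ZNF544), chr19:36605258-36605507 on the minus strand (ZNF529), chr19:52008212-52008461 on the minus strand (ZNF615) and chr19:47573149-47573398 on the minus strand (ZNF541).
ZNF544: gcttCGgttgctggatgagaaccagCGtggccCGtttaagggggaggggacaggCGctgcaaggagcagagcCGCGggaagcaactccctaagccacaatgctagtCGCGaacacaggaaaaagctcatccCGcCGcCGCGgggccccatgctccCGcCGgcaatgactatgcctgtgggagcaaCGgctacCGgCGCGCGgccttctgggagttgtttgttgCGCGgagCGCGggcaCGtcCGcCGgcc
ZNF529: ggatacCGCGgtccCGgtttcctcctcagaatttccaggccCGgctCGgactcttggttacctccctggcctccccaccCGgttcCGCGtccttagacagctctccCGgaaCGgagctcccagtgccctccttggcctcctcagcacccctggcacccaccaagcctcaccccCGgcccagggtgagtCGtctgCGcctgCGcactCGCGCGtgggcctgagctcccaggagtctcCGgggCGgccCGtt
ZNF615: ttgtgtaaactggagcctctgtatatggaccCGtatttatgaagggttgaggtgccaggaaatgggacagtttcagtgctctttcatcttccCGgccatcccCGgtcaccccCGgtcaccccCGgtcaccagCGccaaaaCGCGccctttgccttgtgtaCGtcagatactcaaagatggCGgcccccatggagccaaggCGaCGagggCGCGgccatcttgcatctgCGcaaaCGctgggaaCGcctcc
ZNF541: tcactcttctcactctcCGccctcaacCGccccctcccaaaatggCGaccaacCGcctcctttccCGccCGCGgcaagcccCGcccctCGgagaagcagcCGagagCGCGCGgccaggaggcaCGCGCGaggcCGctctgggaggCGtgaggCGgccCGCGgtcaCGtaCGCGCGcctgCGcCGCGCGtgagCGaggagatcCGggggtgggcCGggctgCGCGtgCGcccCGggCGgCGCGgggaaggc

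The 4 windows hold 26, 20, 17 and 39 CpGs in the order shown, and 39 was the highest number among the 125 promoters. The median was 18 CpGs and 61.6% GC over the 125 promoters, against 11 CpGs and 58% GC over 27303 RefSeq promoters of the same length. The quartiles were 14 and 23 CpGs over the 125 and 3 and 23 over the 27303, so that the upper quartile was the same. The 125 belong to genes detected on these arrays, whereas the 27303 were not limited to detected genes, so the sets are unlike. Zinc finger genes of 19p had a median of 12 CpGs (69 promoters) and those of other chromosomes 19 (231 promoters). The ETS motif CCGGAAG, searched on both strands, was in 31.2% of the 125 promoters and in 8.82% of all promoters, and in 30.4% and 28.6% of those of zinc finger genes of 19p and of other chromosomes. The GC box GGGCGG was in 56.8% against 42.3%, and in 81.2% and 58.9% of the 19p and other zinc finger promoters. The remaining motifs were rarer than in all promoters, with the cAMP response element TGACGTCA in 0.8% against 1.77%, and the TATA box TATAAA in 0.8% against 11.1%. No motif contains another, though neighbouring matches can share letters. A match of letters is a description of the window and not evidence of binding.

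GSK126 alone changed almost none of the 19q zinc finger genes past the test. In RPMI-8226 none of 126 genes passed an adjusted p of 0.05 in limma in either direction. Of all 16016 tested genes, 0.656% were called higher and 0.0562% lower. Of the 126 genes, 7 had an unadjusted p under 0.05, a threshold at which all genes were not counted. The median change of the 126 on the log2 scale was -0.12, and that of all genes -0.05. In MM.1S, 1 of 127 genes was higher and none lower, beside 5.74% of all 16984 genes higher and 2.37% lower. At an unadjusted p under 0.05 there were 14 of the 127, again with no count over all genes. The median was -0.02 against -0.05. The gene called higher was ZNF837, which rose by 0.92 on the log2 scale (adjusted p = 0.0275, limma).

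With UNC0638 the median moved down in both lines. In RPMI-8226 the median log2 fold change of the 126 genes was -0.54 against -0.03 over all genes. Only 3 passed the adjusted threshold, all lower (ZNF284, ZNF615 and ZNF529). Over all genes 0.0749% were called lower and 0.649% higher at that threshold. At an unadjusted p under 0.05 there were 59 of the 126, with no count over all genes. With the replicate number, which follows the slide row, as a block, 16 genes were lower and none higher (all genes not counted). Without any 1 array the count was 0 or 1.

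ZNF284 had levels of -2.01 and -1.57 in RPMI-8226 DMSO, -3.79 and -3.65 with UNC0638, and -2.53 and -2.78 with the combination. The UNC0638 arrays lay below all others of the line, and the fall was 3.81-fold against DMSO (log2 fold change -1.93 ± 0.22 (SE, n = 2 per group), adjusted p = 0.0259, limma). In MM.1S the same gene was at -3.40 and -3.74 in DMSO and at -3.24 and -3.33 with UNC0638, so that both UNC0638 arrays lay above both DMSO arrays.

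In MM.1S, UNC0638 lowered 37 of 127 genes and raised 2 (ZNF837 and ZNF524), beside 16.7% of all genes lower and 13.8% higher. The 37 are 29.1% of the genes tested. The median was -0.34 against -0.06 over all genes. The deepest falls were those of ZNF529 (log2 fold change -1.68, adjusted p = 0.00131, limma) and ZNF544 (-1.62, adjusted p = 0.0379), followed by ZNF264, ZNF222 and ZNF542 (-1.34 to -1.31). Of the ZNF544 arrays with UNC0638, 1 of 2 was above background. Without MM.1S DMSO replicate 1 or UNC0638 replicate 2 the count of changed genes was 20 in place of 39, and without UNC0638 replicate 1 it was 24.

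GSK126 + UNC0638 lowered more of the genes past the test than it raised. In RPMI-8226, 36 of 126 genes (28.6%) were lower and 1 was higher, beside 5.01% of all genes lower and 8.05% higher. The median was -0.59 against -0.12 over all genes. With the replicate number as a block, 54 genes were lower and 1 higher, a count not made over all genes. In MM.1S, 57 of 127 genes (44.9%) were lower and 8 (6.3%) higher, beside 32% lower and 23.2% higher over all genes, with a median of -0.37 against -0.11. Of the genes above background on every array of the line, 33 of 108 were lower and none higher in RPMI-8226. In MM.1S, 57 of 116 were lower and 9 higher. Calls over all genes were not counted under that filter. The medians under it were -0.53 against -0.14 over all genes in RPMI-8226, and -0.33 against -0.14 in MM.1S.

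These counts depended on the arrays and on the scaling. In RPMI-8226 the 37 changed genes became 10 without DMSO replicate 1, 17 without DMSO replicate 2, 13 without either combination array and 21 without either UNC0638 array. Setting each array to the 75th percentile of the probes detected on all arrays moved the median of all genes from -0.12 to 0.04 in RPMI-8226 and from -0.11 to 0.10 in MM.1S. With that scaling 19 genes were lower and 1 higher in RPMI-8226, and 37 lower and 16 higher in MM.1S, with no count over all genes. The medians of the 19q genes were -0.44 and -0.16. The 19q median minus that of all genes was -0.48 in RPMI-8226 and -0.26 in MM.1S with either scaling. The scalings differ only by a constant per array, so this difference could not change between them. It was -0.24 and -0.13 with normexp, another background correction, and -0.58 and -0.35 with quantile normalization. Over probes above background on every array of the line it was -0.39 and -0.19.

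**Figure D1:**
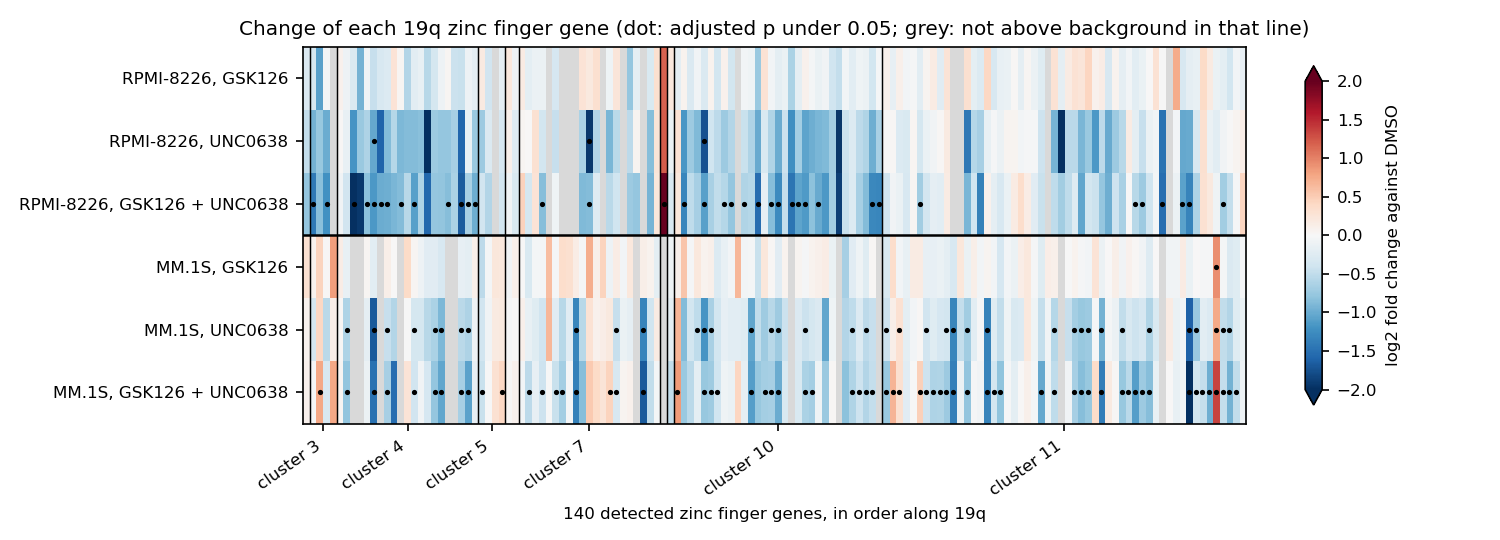
Log2 fold change against DMSO (colour) of each of the 140 genes in order along 19q (columns) for 3 treatments in 2 lines (rows), with black lines between clusters, grey where a gene was not above background in the line, and dots for genes at an adjusted p under 0.05. The UNC0638 and combination rows are mostly blue in both lines, with 36 dots for falls in RPMI-8226 and 57 in MM.1S in the combination rows, whereas the GSK126 rows are pale.

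Per array, the median of the 19q genes against the mean of the DMSO arrays of the line was -0.46 and -0.59 on the RPMI-8226 UNC0638 arrays and -0.57 and -0.59 on the combination arrays. The same medians were -0.05 and -0.16 with GSK126 and 0.07 and -0.07 on the DMSO arrays themselves. In MM.1S they were -0.25 and -0.37 with UNC0638, -0.38 and -0.37 with the combination, 0.03 and -0.01 with GSK126 and 0.02 and -0.02 in DMSO. The UNC0638 and combination arrays thus lay below all DMSO and GSK126 arrays in both lines. On the combination arrays, 86.5% and 85.7% of the genes in RPMI-8226 and 78% and 74.8% in MM.1S were below their DMSO mean.

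Few of the genes differed between the combination and UNC0638 alone. In RPMI-8226 the combination against UNC0638 gave 1 gene higher and none lower in limma, beside 3.11% of all genes higher and 0.587% lower. The gene was ZNF541, which entered the set through the RPMI-8226 combination arrays alone. Over genes above background on every array of the line, none was called in either direction. At an unadjusted p under 0.05 there were 14 genes, with no count over all genes. The median was -0.07 both over the 19q genes and over all genes. With the replicate block 2 were higher and 2 lower. In MM.1S it gave 3 higher (ZNF579, ZNF580 and ZNF8) and 5 lower (ZNF607, ZNF787, ZNF576, ZNF324B and ZNF628), beside 6.69% and 7.36% over all genes, with a median of -0.01 against -0.05. With the scaling on detected probes these became 4 higher and none lower, and the count lay between 0 and 3 without any 1 array.

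Between the combination and GSK126 alone more of them differed. In RPMI-8226 the combination against GSK126 gave 9 genes lower and 1 higher (again ZNF541), beside 0.556% and 2.22% over all genes. The median was -0.50 against -0.06. With the replicate block the numbers were 29 and 1, without a count over all genes. Over genes above background on every array of the line, 3 were lower and none higher. In MM.1S 49 were lower and 4 higher, beside 22.1% and 16.2% over all genes, with a median of -0.34 against -0.06. The RPMI-8226 count of 10 became 2 without GSK126 replicate 1 or combination replicate 1, 3 without GSK126 replicate 2, 4 without either UNC0638 array and 5 without combination replicate 2. The MM.1S count of 53 became 31 and 32 without GSK126 replicate 1 and 2, and 34 without combination replicate 2. These comparisons share the combination arrays with those against DMSO.

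Zinc finger genes of 19p also had negative medians, and those of other chromosomes had medians near those of all genes. With the combination the 19p genes had a median of -0.99 in RPMI-8226 (34 of 60 lower, 1 higher) and -0.41 in MM.1S (37 of 68 lower, 3 higher). Zinc finger genes of other chromosomes had medians of -0.12 (26 of 244 lower, 10 higher) and -0.0044 (64 of 262 lower, 60 higher). Other genes lying within the spans of the 19q clusters had medians of -0.28 (11 of 88 lower, 4 higher) and -0.34 (36 of 90 lower, 17 higher), and all other named genes of 19q -0.18 and -0.22. No test of the difference between these gene groups was made.

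**Figure D2:**
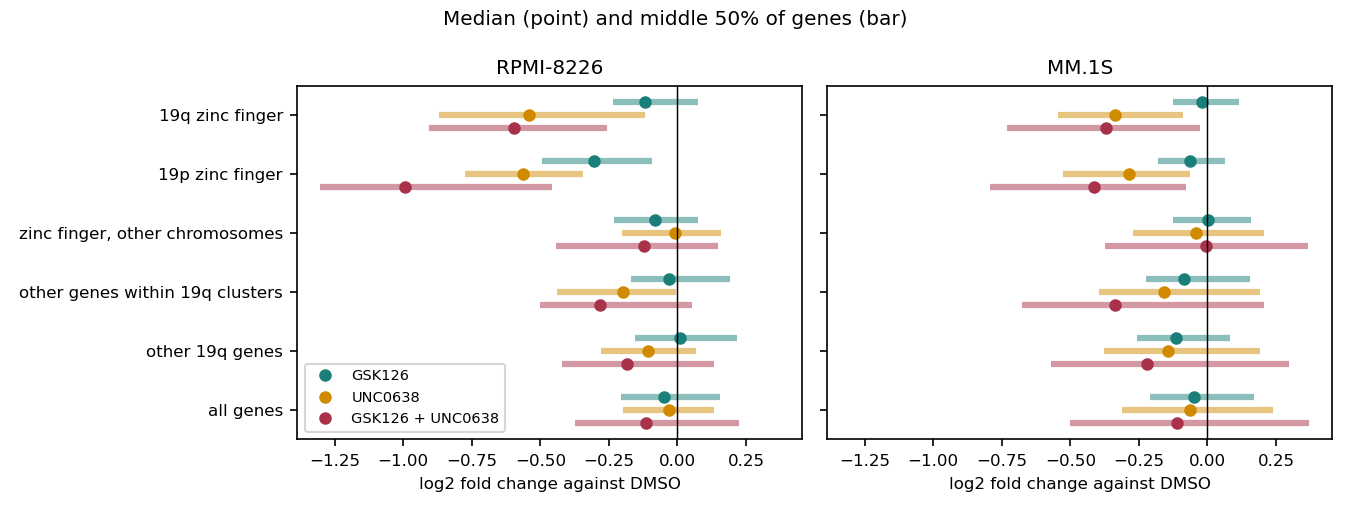
Median (point) and middle 50% (bar) of the log2 fold change against DMSO over the genes of each group, for GSK126, UNC0638 and GSK126 + UNC0638 in RPMI-8226 (left) and MM.1S (right). The UNC0638 and combination medians of 19q and 19p zinc finger genes lie at -0.54 to -0.99 in RPMI-8226 and -0.29 to -0.41 in MM.1S, and those of zinc finger genes of other chromosomes between -0.12 and -0.0044.

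Along the arm, the 177 genes fell into 11 clusters when a gap of over 1 Mb between neighbouring probes began a new cluster, and into 15 with a gap of 0.5 Mb. Most lay in 4 clusters. Cluster 4 (36.7 to 38.2 Mb, GRCh37) had 29 genes with 21 detected, cluster 7 (44 to 45.6 Mb) 24 with 21, cluster 10 (52.1 to 54.1 Mb) 41 with 31 and cluster 11 (56 to 59 Mb) 67 with 54.

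Of the 4 large clusters, 4 and 10 had the lowest medians in both lines. With the combination, cluster 4 had a median of -0.87 in RPMI-8226 (11 of 21 lower) and -0.66 in MM.1S (8 of 15 lower), with no gene called higher in either line. Cluster 10 had medians of -0.80 (14 of 30 lower) and -0.56 (13 of 28 lower, 1 higher). Cluster 11, at the telomeric end, had medians of -0.37 (7 of 50 lower) and -0.39 (28 of 52 lower, 4 higher). Cluster 7 had -0.47 (2 of 14 lower) and -0.10 (7 of 20 lower, 1 higher). The small cluster 3 (35.2 to 35.4 Mb) had -1.21 over 3 genes in RPMI-8226 (2 lower) and 0.37 over 4 genes in MM.1S (1 higher).

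UNC0638 alone gave the same order of the 4 large clusters in RPMI-8226, with medians of -0.78, -0.68, -0.49 and -0.17 in clusters 4, 10, 7 and 11. In MM.1S the medians were -0.54, -0.45, -0.20 and -0.31. Cluster 11 therefore stood last in RPMI-8226 and cluster 7 in MM.1S. No difference between clusters was tested.

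**Figure D3:**
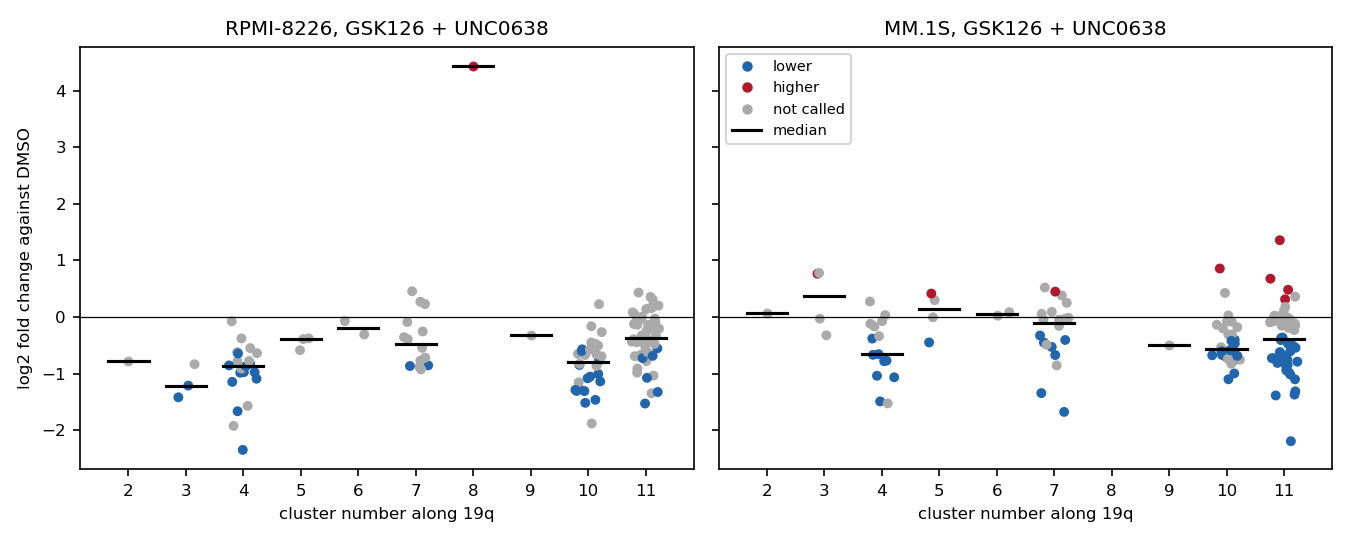
Log2 fold change with GSK126 + UNC0638 against DMSO of each tested gene (points, spread sideways at random within a cluster) by cluster number along 19q, with the cluster median as a line and called genes in blue (lower) or red (higher), in RPMI-8226 (left) and MM.1S (right). Clusters 4 and 10 have medians of -0.87 and -0.80 in RPMI-8226 and -0.66 and -0.56 in MM.1S, and the single point at 4.44 in cluster 8 of RPMI-8226 is ZNF541.

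Adjacent genes were compared within clusters. Over 116 pairs of adjacent tested genes within a cluster, the combination log2 fold changes had a Pearson correlation of 0.26 (Spearman 0.27) in RPMI-8226, against 0.02 (0.08) over 118 pairs in MM.1S. Pairs share genes with each other and all values share the same arrays, so these are descriptions. The longest unbroken run of tested genes called lower within a cluster was ZNF260, ZNF529, ZNF461 and ZNF567 in cluster 4 of RPMI-8226 (log2 fold changes -1.15 to -0.83), where ZNF461 was not above background on either combination array. In MM.1S it had 5 genes and occurred 2 times, both in cluster 11, as ZNF581, ZNF787, ZNF444, ZSCAN5A and ZNF542 (-1.37 to -0.41) and as ZNF586, ZNF552, ZNF587, ZNF814 and ZNF417 (-1.10 to -0.54). The probe for ZNF525, a cluster 10 gene called lower in MM.1S (-0.61, adjusted p = 0.00144, limma), shares a run of at least 30 bases with a probe for RPL39, a ribosomal protein gene, and its value is therefore uncertain. A second ZNF525 probe had -0.06 (adjusted p = 0.795, limma). It was the only 1 of the 140 probes with such a run in a probe of another gene.

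The DMSO level and the CpG number of the promoter were set against the response. Across genes, which share the same arrays, the combination response and the DMSO level had a Spearman correlation of 0.17 in RPMI-8226 (n = 126) and -0.03 in MM.1S (n = 127), and the response and the CpG number 0.07 (n = 114) and -0.10 (n = 112). The DMSO level is itself subtracted in the response, so that noise in it pulls their correlation down. No conclusion is drawn from that correlation. Of the genes called lower in MM.1S with a promoter, 18 of 50 held the ETS motif, against 14 of 55 of those not called and 5 of 7 of those called higher. In RPMI-8226 these were 10 of 32 and 25 of 81.

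Of 113 genes tested in both lines with the combination, 15 (13.3%) were called lower in both, none higher in both, and 80 (70.8%) had a negative log2 fold change in both. Of 14822 genes tested in both lines, 3.09% were called lower in both, 4.39% higher in both, and 47.5% had a negative log2 fold change in both. The correlation across the 113 genes was 0.27 (Pearson) and 0.25 (Spearman), against 0.56 and 0.54 over 14822 genes. The comparisons in the 2 lines share no array, and genes are not independent replicates.

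ZNF529, a KRAB gene of cluster 4, fell in both lines and with UNC0638 alone. Its levels in RPMI-8226 were 0.33 and 0.42 in DMSO, -0.15 and -0.04 with GSK126, -0.56 and -0.75 with UNC0638, and -0.68 and -0.87 with the combination. In MM.1S they were -1.92 and -2.15, -2.17 and -2.33, -3.78 and -3.65, and -3.42 and -3.65 in the same order. The UNC0638 and combination arrays lay below all DMSO and GSK126 arrays of the line, and they overlapped with each other. The combination lowered it 2.22-fold in RPMI-8226 (adjusted p = 0.006, limma) and 2.81-fold in MM.1S (adjusted p = 0.000469), and UNC0638 2.04-fold (adjusted p = 0.0467) and 3.2-fold (adjusted p = 0.00131).

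ZNF544, in cluster 11, had the largest fitted fall in MM.1S. Its levels in RPMI-8226 were 1.48 and 1.78 in DMSO, 1.43 and 1.46 with GSK126, 0.62 and 0.64 with UNC0638, and 0.14 and 0.47 with the combination. In MM.1S they were -3.04 and -3.17, -3.33 and -3.14, -4.27 and -5.19, and -4.72 and -5.88. In each line the UNC0638 and combination arrays were below the others. The fall with the combination was 2.51-fold in RPMI-8226 (adjusted p = 0.00629, limma). In MM.1S both combination arrays had the probe at background, so that only a bound can be given, and it was at least 3.09-fold lower (adjusted p = 0.00713). Such a bound sets the measured mean of the brighter group against, for each array of the dimmer group, the higher of its lowest signal above background and the probe's own signal.

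ZNF701 and ZNF615, both in cluster 10, fell in both lines. ZNF701 had levels of 1.40 and 1.77 in RPMI-8226 DMSO and 0.18 and 0.46 with the combination, and 1.13 and 1.24 in MM.1S DMSO against 0.25 and 0.12 with the combination. The groups did not overlap, and the falls were 2.4-fold (adjusted p = 0.00962, limma) and 2-fold (adjusted p = 0.000462). ZNF615 was lower with UNC0638 alone than with the combination, at -3.46 and -3.98 against -2.92 and -3.19 in RPMI-8226, where DMSO gave -1.70 and -2.24. In MM.1S these were -3.62 and -4.04 against -3.31 and -3.54, with DMSO at -2.51 and -2.81. Its UNC0638 falls were 3.35-fold (adjusted p = 0.0485) and 2.25-fold (adjusted p = 0.00756). The combination and UNC0638 did not differ past the threshold in either line.

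ZNF814 fell by similar amounts in the 2 lines (log2 fold changes -0.73 ± 0.17 and -0.73 ± 0.12 (SE, n = 2 per group), adjusted p = 0.0379 and 0.00377, limma). In RPMI-8226 the combination calls of ZNF814 and ZNF615 were lost in 10 and 7 of 18 other settings, among them the scaling on detected probes (adjusted p = 0.08 and 0.0717). The other 10 genes called lower in both were ZNF587, ZNF607, ZNF808, ZNF571, ZNF567, ZNF28, ZNF813, ZNF584, ZNF283 and ZNF420, with log2 fold changes from -1.67 to -0.55 in RPMI-8226 and from -1.10 to -0.38 in MM.1S.

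**Figure D4:**
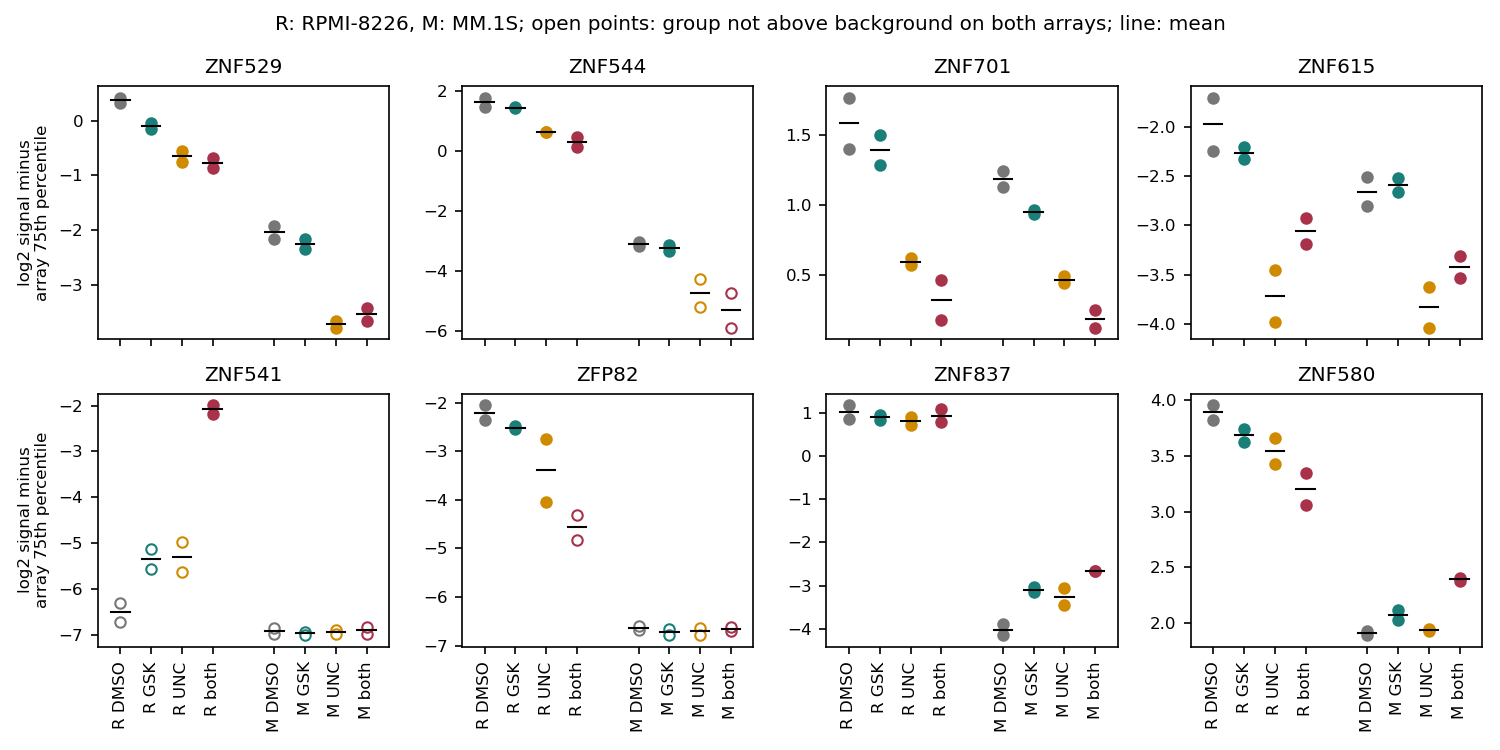
Level on each array (points; log2 signal minus the array's 75th percentile) of 8 genes by line and treatment, with the group mean as a line and open points where a group was not above background on both arrays. ZNF529, ZNF544, ZNF701 and ZNF615 drop with UNC0638 and the combination in both lines, ZNF541 rises to about -2 only in the RPMI-8226 combination, and ZNF837 and ZNF580 rise in MM.1S but not in RPMI-8226.

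ZNF541 was the only gene called higher in RPMI-8226 with the combination. Its levels were -6.74 and -6.30 in DMSO, -5.56 and -5.12 with GSK126, -4.98 and -5.63 with UNC0638, and -1.99 and -2.18 with the combination, and between -7.01 and -6.83 on all 8 MM.1S arrays. It was above background on both arrays of the RPMI-8226 combination group alone and entered the set through that group, so its values are a description. The combination arrays lay at least 4.53-fold above DMSO and at least 5-fold above UNC0638.

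The 6 largest falls called in RPMI-8226 were those of ZFP82, ZNF571, ZNF256, ZNF880, ZNF83 and ZNF302. ZFP82, in cluster 4, had levels of -2.05 and -2.37 in DMSO, -2.49 and -2.54 with GSK126, -2.74 and -4.04 with UNC0638 and -4.30 and -4.82 with the combination. The combination arrays were the lowest and not well above background, and the fall was at least 4.1-fold (adjusted p = 0.0174, limma). The gene was at background on every MM.1S array (-6.78 to -6.60).

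ZNF571 was at -2.58 and -2.54 in RPMI-8226 DMSO and -3.90 and -4.55 with the combination, a fall of 3.18-fold (adjusted p = 0.0115, limma), and 1 of the 2 combination arrays was above background. In MM.1S it fell 1.59-fold (adjusted p = 0.0018). ZNF256, a KRAB repressor known to bind TRIM28, was at -0.07 and -0.40 in DMSO and -1.49 and -2.05 with the combination (2.89-fold, adjusted p = 0.0168). ZNF302 was at -0.08 and -0.06 in DMSO and -1.14 and -1.85 with the combination (2.68-fold, adjusted p = 0.0198). ZNF880 and ZNF83 had log2 fold changes of -1.52 ± 0.37 and -1.47 ± 0.36 (SE), with adjusted p = 0.0457 and 0.0444, and neither remained past the threshold without a filter on dim probes or with the scaling on detected probes.

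In MM.1S the 6 largest called falls were those of ZNF544, ZNF285, ZNF529, ZNF551, ZNF542 and ZNF222. ZNF285, in cluster 7, had levels of -4.07 and -4.37 in DMSO, -3.93 and -4.28 with GSK126, -5.77 and -5.29 with UNC0638 and -5.96 and -5.84 with the combination. The UNC0638 and combination arrays lay below the others and were not well above background, and the fall with the combination was at least 1.54-fold (adjusted p = 0.00124, limma). ZNF551 went from -0.11 and -0.17 in DMSO to -0.95 and -1.23 with UNC0638 and -1.45 and -1.61 with the combination (2.62-fold, adjusted p = 0.000446). ZNF542, a transcribed pseudogene, fell 2.59-fold (adjusted p = 0.00062) and was at background in RPMI-8226. ZNF222 fell 2.54-fold (adjusted p = 0.00148), with 1 of its 2 combination arrays above background.

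A rise passed the test for 8 genes in MM.1S with the combination. ZNF837 had levels of -3.89 and -4.15 in DMSO, -3.03 and -3.15 with GSK126, -3.45 and -3.06 with UNC0638, and -2.66 and -2.65 with the combination. All treated arrays were above the DMSO arrays, and the rise with the combination was 2.56-fold (adjusted p = 0.00102, limma). In RPMI-8226 the gene was already high, at 0.86 and 1.18 in DMSO, and did not pass the test (adjusted p = 0.755). ZNF579 and ZNF580, close to each other at the start of cluster 11, rose 1.6-fold (adjusted p = 0.00125) and 1.4-fold (adjusted p = 0.00303). The others were ZNF175 (1.81-fold, adjusted p = 0.0244), ZNF181 (1.7-fold, adjusted p = 0.00999), ZNF226 (1.36-fold, adjusted p = 0.0432), ZNF780A (1.33-fold, adjusted p = 0.00991) and ZNF524 (1.24-fold, adjusted p = 0.0196). ZNF175 and ZNF226 did not pass with quantile normalization (adjusted p = 0.0537 and 0.0512), and ZNF226 passed in only 7 of 18 other settings.

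ZNF580 was the only gene called in opposite directions in the 2 lines. Its levels were 3.96 and 3.83 in RPMI-8226 DMSO and 3.06 and 3.35 with the combination (1.61-fold lower, adjusted p = 0.0435, limma), and 1.89 and 1.93 in MM.1S DMSO against 2.38 and 2.41 (1.4-fold higher, adjusted p = 0.00303). The pairs of arrays did not overlap in either line.

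The response to the combination was compared between the lines with an interaction term over the 16 arrays. Of 140 genes, 16 had a lower response in RPMI-8226 than in MM.1S and 4 a higher response, beside 6.61% and 7.81% of all 18178 genes. With the replicate block these were 27 and 7, and without MM.1S DMSO replicate 1 or MM.1S combination replicate 2 the total was 11 in place of 20, and without MM.1S DMSO replicate 2 it was 12. Of these 20 genes, 12 of the 16 with a lower and 2 of the 4 with a higher response were tested in both lines. Among genes tested in both lines, ZNF181 (-1.60), ZNF837 (-1.45), ZNF302 (-1.39) and ZNF580 (-1.17) had the largest negative differences, with adjusted p = 0.0172, 0.00455, 0.0161 and 0.00248 (limma), and ZNF264 the largest positive difference (1.40, adjusted p = 0.000627). ZFP82, ZNF569, ZNF541, ZNF331 and ZNF256 were not above background on both arrays of any MM.1S group, nor ZNF542 in RPMI-8226, so that the sizes of their differences were not measured. ZNF256 did not pass in 15 of 24 other settings, among them the replicate block (adjusted p = 0.0505).

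Before treatment 55% of the 140 genes differed between the lines past the test, beside 59.1% of all genes. In DMSO, 51 of 140 genes (36.4%) were higher and 26 (18.6%) lower in RPMI-8226 than in MM.1S, beside 29.7% and 29.4% of all genes, and the median difference was 0.21 against -4e-04. With normexp background correction, another way to remove background, the numbers were 63 higher and 18 lower, without a count over all genes. The median was then 0.27 against 0.13 over all genes. Over the 100 genes above background on every array 36 were higher and 24 lower, again without a count over all genes. Their median was 0.19 against 0.04 over all genes under that filter. Without a filter on dim probes the median of all genes was 0.33, above the 0.21 of the 19q genes, so that the side on which the 19q genes lay depended on the filter. Zinc finger genes of 19p went the other way, with 8 of 70 higher and 38 lower and a median of -0.54. Cluster 10 (18 of 31 higher, 2 lower, median 0.69) and cluster 4 (10 of 21 higher, 3 lower, median 0.68) were higher in RPMI-8226, and cluster 7 was lower (3 of 21 higher, 6 lower, median -0.35). The share of variance over the 16 arrays lying between the lines had a median of 56.5% over the 140 genes and 61.4% over all genes.

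Several of the largest differences were in genes not above background in MM.1S. ZNF256 was at -0.07 and -0.40 in RPMI-8226 DMSO and -6.66 and -6.64 in MM.1S DMSO, at least 23.2-fold higher in RPMI-8226 (adjusted p = 1.02e-06, limma). ZNF569 was at -0.57 and -0.67 against -6.97 and -6.83 (at least 17.8-fold, adjusted p = 2.67e-11). ZNF331, an imprinted KRAB gene, was at -0.62 on both RPMI-8226 arrays against -6.03 and -5.48 (at least 17.9-fold, adjusted p = 3.14e-08), and ZFP112 at least 8.51-fold higher (adjusted p = 8.87e-09). ZNF837 was above background in both lines and 32.8-fold higher in RPMI-8226 (adjusted p = 3.62e-09).

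Fewer genes were far lower in RPMI-8226. ZNF542 was at -6.71 and -6.28 in RPMI-8226 DMSO and -2.06 and -1.92 in MM.1S, at least 4.83-fold lower in RPMI-8226 (adjusted p = 9.66e-09, limma). ZFP36 was at 1.59 and 2.22 against 4.41 and 4.04, 4.98-fold lower (adjusted p = 4.09e-05). ZNF582 was at least 1.67-fold lower (adjusted p = 0.0033), though not with normexp background correction (adjusted p = 0.812). ZNF296, a factor of pluripotent cells, and ZNF575 were 3.41-fold and 2.98-fold lower (adjusted p = 0.000693 and 4.9e-05).

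**Figure D5:**
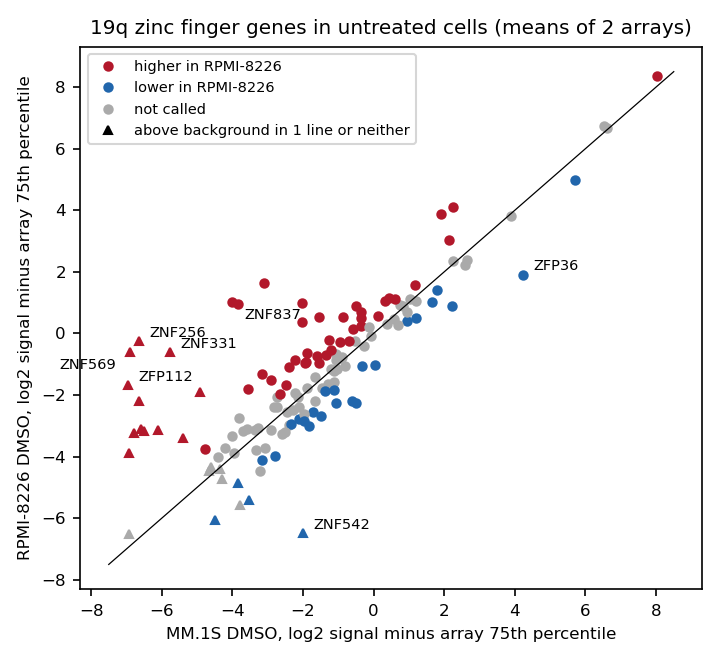
Mean level of each of the 140 genes in DMSO (n = 2 arrays per line) in RPMI-8226 (vertical) against MM.1S (horizontal), both as log2 signal minus the array's 75th percentile, with the line of equal level. The 51 genes higher in RPMI-8226 are red and the 26 lower are blue, grey genes were not called, and triangles mark genes above background in 1 line or neither, with ZNF256, ZNF569, ZNF331 and ZFP112 at the left.

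Genes with a described role were followed whatever their values. ZNF274, a KRAB and SCAN protein known to bind the ends of zinc finger genes and to recruit SETDB1 there, was at -0.32 and -0.72 in RPMI-8226 DMSO, -0.66 and -1.03 with GSK126, -1.33 and -1.78 with UNC0638 and -1.45 and -1.74 with the combination. It was 2.11-fold lower with the combination (adjusted p = 0.0371, limma), and UNC0638 alone did not pass (adjusted p = 0.179). In MM.1S its levels ran from -1.37 to -1.0013 over all arrays, the groups overlapped (adjusted p = 0.765 with the combination), and the response differed between the lines (-1.03 ± 0.29, adjusted p = 0.0435).

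ZNF331 fell 2.48-fold in RPMI-8226 with the combination (adjusted p = 0.00392, limma), from -0.62 on both DMSO arrays to -1.90 and -1.95. ZNF146 (OZF), which consists of zinc fingers without a KRAB domain, fell 1.72-fold in MM.1S (adjusted p = 0.00102), and its fall of 1.3-fold in RPMI-8226 did not pass (adjusted p = 0.113). ZNF350 (ZBRK1), a partner of BRCA1, was lower with UNC0638 in MM.1S (1.42-fold, adjusted p = 0.0396) but did not pass with the combination in either line. ZFP36 fell 1.37-fold in MM.1S (adjusted p = 0.0309). ZNF304, ZNF224, ZNF473 (a factor of histone pre-mRNA processing) and ZNF296 passed no test of the combination against DMSO in either line.

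Of 30 partners of KRAB silencing, all tested in both lines, few changed in RPMI-8226. With the combination 2 were lower (CHAF1A, a subunit of chromatin assembly factor 1, and ZNF274) and none higher there, with a median of -0.15, beside 5.01% lower, 8.05% higher and a median of -0.12 over all genes, and GSK126 and UNC0638 alone changed none. In MM.1S the combination lowered 14 and raised 2 (median -0.30), beside 32% lower, 23.2% higher and a median of -0.11 over all genes. UNC0638 lowered 8 and raised 1 there, beside 16.7% and 13.8% of all genes, and GSK126 changed none. TRIM28, the co-repressor of KRAB proteins, fell in MM.1S with UNC0638 (log2 fold change -0.54, adjusted p = 0.0166, limma) and with the combination (-0.97, adjusted p = 0.000959), and in RPMI-8226 it had -0.42 (adjusted p = 0.373). SETDB1 had 0.07 and 0.10 with the combination (adjusted p = 0.756 and 0.325). EZH2, the target of GSK126, fell in MM.1S with the combination (-1.10, adjusted p = 0.00349), as did EHMT2, the gene of G9a (-0.32, adjusted p = 0.0362). UHRF1, which maintains DNA methylation, fell by 1.35 on the log2 scale (adjusted p = 0.000491), and FAM208A (TASOR) and MORC3 rose by 0.55 and 0.58 (adjusted p = 0.0023 and 0.0166). Between the members of the list and all genes no test was made.

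Several genes were measured by more than 1 probe, and the probes did not always agree. In MM.1S with the combination, 6 of 39 genes with more than 1 kept probe had probes of opposite sign, and in RPMI-8226 4 of 38, but none was called in both directions. In DMSO between the lines 13 of 46 had opposite signs, and ZNF137P, ZNF226, ZNF587, ZNF701 and ZNF865 were called in both directions by different probes, so that their difference between lines is uncertain.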

How the data were processed

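Total RNA of RPMI-8226 and MM.1S cells was hybridised to 16 single-colour Agilent arrays (2 for each of 8 groups). The scanner files were deposited by the authors, made with Agilent Feature Extraction 10.7 per the labels, and hold each spot's background-subtracted intensity on a linear scale, with probe positions on hg19 (GRCh37). Between 46.5% and 52.8% of spots were above background. The deposited series table holds intensities on a linear scale. They equal the rounded intensities of the scanner files in 99.9956% of cases, and the table was used only as an alternative.

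From the intensity, log2 minus each array's 75th percentile was computed, and control and outlier spots were left out. A probe was kept where both arrays of some group had it well above background, with 1 probe per gene in the counts. Treatment comparisons were fitted per line over its 8 arrays, and comparisons between lines over all 16, with limma 3.58.1 (lmFit and eBayes, R 4.3.3) on all kept probes. Adjusted p-values are Benjamini-Hochberg values over all of these probes, with a threshold of 0.05. Scripts were tested on simulated data. The number of arrays limits the precision.

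Replicate numbers follow the slide row. Deviations of same-numbered RPMI-8226 arrays correlated at r = 0.25 to 0.42 in 6 of 6 pairs of groups, so that a block on the number was among the alternatives. In MM.1S r was 0.08 to 0.22 over the 6 pairs of groups, and the samples share only a number. An effect of the slide row and a pairing of samples cannot be told apart in these deviations.

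Named genes were, per line, the 6 largest called rises and falls with the combination, the 5 largest called in both lines, the 5 highest and lowest between the lines, the 3 largest differences of response, and genes chosen by role. ZNF284, ZNF524, ZNF780A and others named beside small counts were chosen after their values were seen. The members and lists were chosen with earlier results of these data known. The alternatives were quantile normalization, another percentile, normexp with an offset of 50, other filters on dim probes, the replicate block, 1 fit over 16 arrays, an intensity trend in the prior variance, the mean over probes, and leaving out each array. Calls over all genes were not counted under these alternatives.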

Additional observations from a re-analysis of the deposited data

Results flagged for a closer look

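The response to GSK126 + UNC0638 differed between the lines, by an interaction term in limma over 16 arrays, for 20 of the 140 genes. That was 14.3% of them, beside 14.4% of all 18178 genes. The value for each of the 20 is the log2 response in RPMI-8226 minus that in MM.1S. Among genes tested in both lines it was lower in RPMI-8226 for ZNF181 (-1.60, adjusted p = 0.0172), ZNF837 (-1.45, adjusted p = 0.00455), ZNF302 (-1.39, adjusted p = 0.0161), ZNF580 (-1.17, adjusted p = 0.00248), ZNF671 (-1.16, adjusted p = 0.0336), ZNF274 (-1.03, adjusted p = 0.0435), ZNF571 (-0.9985, adjusted p = 0.049), ZNF226 (-0.99, adjusted p = 0.0239), ZNF573 (-0.81, adjusted p = 0.0133), ZNF600 (-0.75, adjusted p = 0.0377), ZNF579 (-0.74, adjusted p = 0.00668) and ZNF420 (-0.71, adjusted p = 0.019). It was higher for ZNF264 (1.40, adjusted p = 0.000627) and ZSCAN5A (0.89, adjusted p = 0.014). Fitted values that do not measure the size of a difference were -2.33 for ZFP82, -2.31 for ZNF256, -2.10 for ZNF331, -0.84 for ZNF569 and 4.42 for ZNF541, none of which was above background on both arrays of any MM.1S group, and 1.40 for ZNF542, which was at background in RPMI-8226. Each response was taken within 1 line and slide, so that a constant difference in level between the slides cancels. A slide effect on the response itself cannot be told apart from the line in any of these differences.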

How the results depend on the processing

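Of the genes named by the size of their change, none altered its sign under the alternatives listed, in the comparison that named it. Genes named only by role, or after their values were seen, were not checked in this way. The series value table gave the same counts of changed genes. Medians near 0 did alter their sign. The 19q median with GSK126 in MM.1S was 0.0673 with the 75th percentile over detected probes (-0.0184 as reported). That of the combination against UNC0638 was 0.0331 with it in RPMI-8226 (-0.0726), and in MM.1S (-0.0128) 0.0912 with it, 0.0123 with the mean over probes and 0.0052 without a filter. Both MM.1S medians also lay above 0 without some single arrays. In DMSO the 19q median minus that of all genes was 0.2133 between the lines and -0.1159 without a filter. The counts below are of genes changed in either direction, and the cause of each move was not tested. With quantile normalization the RPMI-8226 counts were 1 for UNC0638 (3 as reported) and 2 for the combination against UNC0638 (1 as reported). With the 75th percentile over detected probes they were 1 for UNC0638, 20 for the combination and 2 for the combination against UNC0638 in RPMI-8226, and 2 for GSK126 and 4 for the combination against UNC0638 in MM.1S. With normexp they were 3 for GSK126 in MM.1S and 2 for the combination against UNC0638 in RPMI-8226. Without a filter on dim probes, where more probes are tested, they were 0, 18 and 3 for UNC0638, the combination and the combination against GSK126 in RPMI-8226, 0, 23, 30 and 0 for GSK126, UNC0638, the combination against GSK126 and against UNC0638 in MM.1S, and 13 for the difference of response. With only probes above background on every array they were 3 for GSK126 in MM.1S, and 3 and 0 for the combination against GSK126 and against UNC0638 in RPMI-8226.

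With the replicate number as a block the counts were 16, 30 and 4 for UNC0638, the combination against GSK126 and against UNC0638 in RPMI-8226, 2 for GSK126 in MM.1S and 34 for the difference of response, and the other counts stayed within 1.5 times. With 1 fit over 16 arrays they were 2, 28, 65, 37 and 10 for GSK126, UNC0638, the combination, the combination against GSK126 and against UNC0638 in RPMI-8226, and 25, 35 and 2 for UNC0638, the combination against GSK126 and against UNC0638 in MM.1S. With an intensity trend they were 7 for UNC0638 in RPMI-8226 and 6 for GSK126 in MM.1S, and with the mean over probes 7 and 2, and 2 for the combination against UNC0638 in RPMI-8226.

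Leaving out 1 array at a time gave, in RPMI-8226, 0 to 0 for GSK126, 0 to 1 for UNC0638, 10 to 30 for the combination, 2 to 8 against GSK126 and 1 to 3 against UNC0638. In MM.1S the ranges were 0 to 1, 20 to 41, 49 to 64, 31 to 51 and 0 to 3 in the same order. They were 66 to 81 for the lines in DMSO and 11 to 22 for the difference of response. The number of clusters was 11 with a gap of 1 Mb and 15 with 0.5 Mb. For single named genes, 351 values kept their call and 20 lost it over the other settings, and 360 kept and 64 lost it without 1 array. ZNF814 and ZNF615 in RPMI-8226 lost their call in 10 and 7 of 18 settings, and ZNF880 in 10 of 17. Genes near background have values that signal over background limits.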
